A study of Mus musculus with 20 samples.

Results

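The 10 immediate early transcription factor genes Nr4a1, Nr4a2, Nr4a3, Fos, Fosb, Jun, Junb, Egr1, Egr2 and Atf3 were followed in the diaphragm, mouse by mouse, out of 34797 gene names on the array. Every noncontrol probe that carried a member's symbol was taken, which gave 11 probes, 2 of them for Nr4a2. The members were chosen from earlier results on these same array signals. Their differences between groups are therefore given as a description, with no test. RNA came from female C57Bl/6 mice that received a single injection into the pleural cavity at 8 weeks of age and were killed 12 weeks later. The 5 groups held 4 mice each. The control group received 0.5% BSA in saline, the vehicle that all fibers were suspended in. SFA mice received 25 μg of amosite asbestos shortened by milling, and LFA mice received 25 μg of amosite enriched for long fibers. NTS mice received 5 μg of short carbon nanotubes, and NTL mice received 5 μg of long carbon nanotubes. Asbestos and nanotubes thus differed in dose. The RNA was that of whole diaphragm pieces, so muscle, mesothelium and any attached cells were measured together.

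Immediate early genes are transcribed within minutes of a stimulus, without new protein synthesis, by factors that already sit at their promoters. Their products are mostly short-lived transcription factors. Fos, Fosb, Jun and Junb form the AP-1 dimers, Egr1 and Egr2 are zinc finger proteins, Nr4a1, Nr4a2 and Nr4a3 are orphan nuclear receptors, and Atf3 is a bZIP factor of the cellular stress response. In skeletal muscle NR4A receptors are known for their control of glucose handling and Egr1 and Fos for their response to contraction. In macrophages several of these genes respond to growth factors and to inflammatory stimuli.

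Promoter sequence was matched for 9 of the 10 members, all but Egr1. The 13 windows ran from 250 bases before to 50 bases after a RefSeq start (GRCm38.p6). Those of Nr4a1, Fos and Egr2 are shown because levels of these 3 genes (and of Egr1) followed each other between mice of a group. They lie at chr15:101266596-101266895, chr12:85473640-85473939 and chr10:67537619-67537918, all on the plus strand. Capitals mark every match, on either strand, to the core of the cyclic AMP response element (TGACG), the EGR site (GCGNGGGCG), the CArG box of the serum response element and the TATA box (TATAAA).
Nr4a1: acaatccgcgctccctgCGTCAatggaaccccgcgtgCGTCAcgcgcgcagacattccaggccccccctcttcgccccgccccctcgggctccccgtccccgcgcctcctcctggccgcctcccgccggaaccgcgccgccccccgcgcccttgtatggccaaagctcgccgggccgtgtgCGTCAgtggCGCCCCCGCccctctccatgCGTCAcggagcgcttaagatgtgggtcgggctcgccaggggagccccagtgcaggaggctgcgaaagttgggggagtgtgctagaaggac
Fos: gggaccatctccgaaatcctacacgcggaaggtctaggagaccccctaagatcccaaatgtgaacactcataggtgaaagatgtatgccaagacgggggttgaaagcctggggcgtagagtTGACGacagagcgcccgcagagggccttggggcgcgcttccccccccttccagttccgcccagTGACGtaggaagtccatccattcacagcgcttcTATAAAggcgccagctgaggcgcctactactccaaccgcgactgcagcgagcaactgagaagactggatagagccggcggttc
Egr2: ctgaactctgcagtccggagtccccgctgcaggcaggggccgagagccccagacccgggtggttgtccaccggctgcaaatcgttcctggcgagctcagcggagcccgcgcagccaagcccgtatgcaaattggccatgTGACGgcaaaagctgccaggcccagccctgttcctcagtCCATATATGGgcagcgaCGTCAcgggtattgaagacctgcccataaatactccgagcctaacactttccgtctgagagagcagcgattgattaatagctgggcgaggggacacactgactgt
TGACG was found in 10 of the 13 member windows, in every matched gene except Jun, and in 20.8% of all 32851 promoter windows. It began at positions −129 and −66 from the Fos start, where the TATA box began at −33. The Nr4a1 window held it 4 times on the opposite strand (as CGTCA), with an EGR site between the copies at −69 and −40. A CArG box stood at −72 in the Egr2 window shown, and such a box was found in 4 of the 5 Egr2 windows and in 1.63% of all windows. Some Egr2 windows overlap and share the same box (CCATATATGG). The window at chr10:67537316-67537615 overlaps none of them and held another (CCTTTTTTGG). EGR sites were found for Nr4a1, Nr4a2 and Fosb and in 5.55% of all windows. The complete cyclic AMP response element (TGACGTCA, 1.79% of all windows), the AP-1 site (TGANTCA, 7.81%) and the NR4A site (AAAGGTCA, 1.51%) matched 0 member windows. These matches describe letters in the windows only.

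Signals are log2 intensities relative to the 75th percentile of the array, so a value of 1 stands for 2 times that percentile. Levels of different probes are not compared with each other. Of the 11 member probes, 8 were well above background on all 20 arrays, and 10 (9 genes) were well above background on at least 4 arrays and entered the fit of 36920 probes. The 75th percentile signal of the arrays ran from 294 to 996, and 53.0% to 68.1% of their spots were well above background. The labeled tissue held its markers, since each of the 20 arrays had all 14 skeletal muscle markers well above background. The 14 macrophage markers were at least 1.26 above the control mean in every LFA and NTL mouse and at most 0.46 above it in every SFA and NTS mouse (mean log2 difference). The 14 skeletal muscle markers stood between −1.45 and −0.76 relative to the control mean in LFA and NTL mice, between −0.66 and −0.06 in SFA mice and between −0.92 and 0.56 in NTS mice. Of the 13 liver markers measured, the mean stood over 5 above the control mean on 5 arrays, SFA replicate 2, LFA replicates 1 and 3 and NTS replicates 3 and 4. The arrays came from 3 slides, each with control mice and at least 2 fiber groups. A 5′ to 3′ index, the mean difference between the probes nearest to the 5′ and 3′ ends of 1125 transcripts, ran from −0.68 to 0.35 relative to the control mean, and higher values mean more signal near the 5′ end. Because whole tissue was measured, fewer cells of a type and less RNA per cell cannot be told apart.

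Nr4a1 was lower than in control mice in all 4 fiber groups, with overlap in LFA. Nr4a1 (Nur77) is an orphan nuclear receptor that regulates glucose use in muscle and restrains inflammatory gene expression in macrophages. Its probe lies at chr15:101105071-101105130 (NCBI37). The 4 control mice had log2 signals of 4.89, 5.84, 5.67 and 5.55. SFA mice had 3.50, 3.05, 4.07 and 3.16, and NTS mice had 3.71, 3.58, 2.57 and 4.27. NTL mice had 2.96, 4.40, 3.89 and 3.33, and LFA mice had 4.50, 3.43, 4.96 and 4.57. Every SFA, NTS and NTL mouse lay below every control mouse, and 1 LFA mouse (4.96) lay above the lowest control mouse. The fiber groups overlapped each other. The log2 differences from control were −2.05 in SFA, −1.13 in LFA, −1.96 in NTS and −1.84 in NTL, each with an SE of 0.41 (limma, n = 4), or 4.14-fold, 2.18-fold, 3.88-fold and 3.59-fold lower. All 4 differences use the same 4 control mice. LFA stood 0.92 ± 0.41 (SE) above SFA, while NTL and NTS differed by 0.11 ± 0.41. Within slides that held both groups the difference was negative in all 9 comparisons, from −2.41 to −0.79. Each rests on 1 or 2 control mice and 1 to 3 fiber mice, and the comparisons share control mice. Without the 5 arrays high in liver markers the differences were −1.92 in SFA, −1.49 in LFA, −1.84 in NTS and −1.84 in NTL.

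Egr2 was higher in both long fiber groups and not in the short ones. Egr2 (Krox20) is a zinc finger factor of myelinating Schwann cells that is also expressed in macrophages, and its probe lies at chr10:67004798-67004857 (NCBI37). Control mice had −1.39, −0.57, −1.10 and −1.66, SFA mice −0.60, −1.57, −0.76 and −1.27, and NTS mice −1.44, −1.72, −1.99 and −1.22. LFA mice had −0.03, 0.40, −0.34 and 1.12, and NTL mice had 0.32, 1.39, 1.20 and 0.37. Each of the 8 long fiber mice lay above each of the 12 other mice, and LFA and NTL overlapped. The log2 difference from control was 1.47 ± 0.35 in LFA (SE, 2.77-fold higher) and 2.0 ± 0.35 in NTL (4.01-fold higher), against 0.13 ± 0.35 in SFA and −0.41 ± 0.35 in NTS. LFA stood 1.34 ± 0.35 above SFA and NTL 2.41 ± 0.35 above NTS. Within slides the LFA difference ran from 0.96 to 2.05 and the NTL difference from 1.30 to 2.09. Without the arrays high in liver markers, 2 of them LFA, the LFA difference was 1.94.

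Egr2 moved with the macrophage markers. Across the 8 LFA and NTL mice its Pearson r with the macrophage score was 0.80 (Spearman 0.79), and across the 12 control, SFA and NTS mice it was 0.53 (Spearman 0.60). With group means removed r was 0.67 over the 20 mice. These are descriptions over mice that share an array scale, and the part of macrophage number in the Egr2 signal was not tested. For Nr4a1 r with the same score was −0.08 after group means were removed. With the skeletal muscle score its r, computed the same way, was 0.10, and the part of cell composition in the Nr4a1 signal was not tested.

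**Figure D1:**
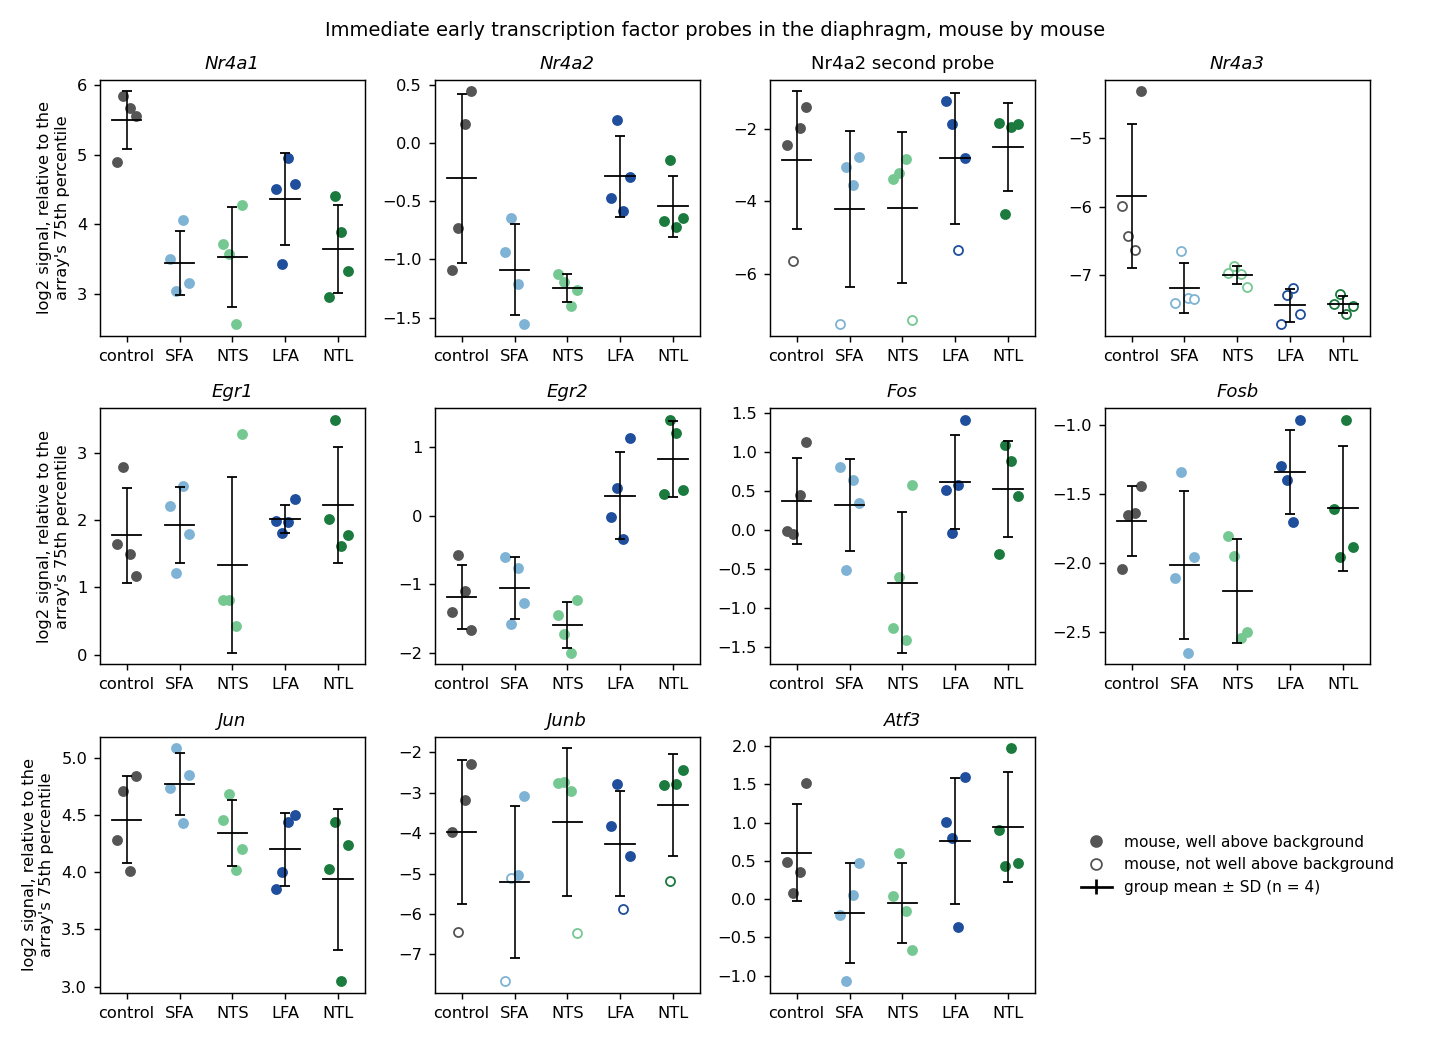
Log2 signal of the 11 member probes relative to the 75th percentile of each array (vertical axis), for the 4 mice of each group (horizontal axis). Points are mice, open where the probe was not well above background, and bars are group means ± SD. Nr4a1 is lower in all fiber groups, with only 1 LFA mouse inside the control range, and Egr2 separates the 8 LFA and NTL mice from the other 12.

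With these signals a probe was called when its log2 change was at least 1 and its adjusted p (limma, Benjamini-Hochberg over all tested probes) was under 0.05. In LFA 1 of the 9 member genes tested was called, Egr2 (higher), beside 3.94% of all tested probes (2.22% higher and 1.72% lower). In NTL 2 were called, Egr2 (higher) and Nr4a1 (lower), beside 6.81% of all probes (3.63% higher and 3.18% lower). In SFA and in NTS 0 members were called, beside 0% of all probes, while 843 probes in SFA and 1288 in NTS had an unadjusted p under 0.05 by the same limma fit. Nr4a1 was thus called in NTL and not in SFA or NTS, although its differences there were larger. The Benjamini-Hochberg adjustment ranks each p among all probes of the same comparison. The Egr2 call in LFA was lost without control replicate 1 or 4, without LFA replicate 2 or 4, and in a fit of LFA and control alone, with differences of 1.19 to 1.68 over all single arrays left out.

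Read without the fit, Egr2 was the only member gene with every array above every control array, in LFA (4.61% of probes) and in NTL (6.35% of probes), against 0 members in SFA (0.56%) and NTS (0.623%). Among the 9 tested member genes, every array lay below every control array for Nr4a1 in SFA (0.881% of probes), for Nr4a1 and Nr4a2 in NTS (0.868%), for Nr4a1 in NTL (13.8%) and for 0 members in LFA (11.6%). Nr4a3, which was not tested, lay below every control array in all 4 fiber groups, where it was not well above background. Since the members were chosen from these contrasts, nothing is read from these counts. Under quantile normalization the share of LFA calls that were higher was 75.9% in place of 56.4%, and that of NTL calls 72.3% in place of 53.3%. The median of all tested probes was −0.28 in LFA and −0.25 in NTL, and −0.08 and −0.09 under quantile normalization. The median difference of the 10 members was 0.08 in LFA, 0.12 in NTL, −0.55 in SFA and −0.58 in NTS, beside medians over all tested probes of −0.10 in SFA and −0.06 in NTS. The 10 include Nr4a3, which was not tested and whose measured differences, all negative, rest on background in the fiber groups. The member medians are therefore not on the same footing as those of the tested probes. Nr4a1 stayed lower in all 4 fiber groups and Egr2 higher in LFA and NTL under both scalings.

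**Figure D2:**
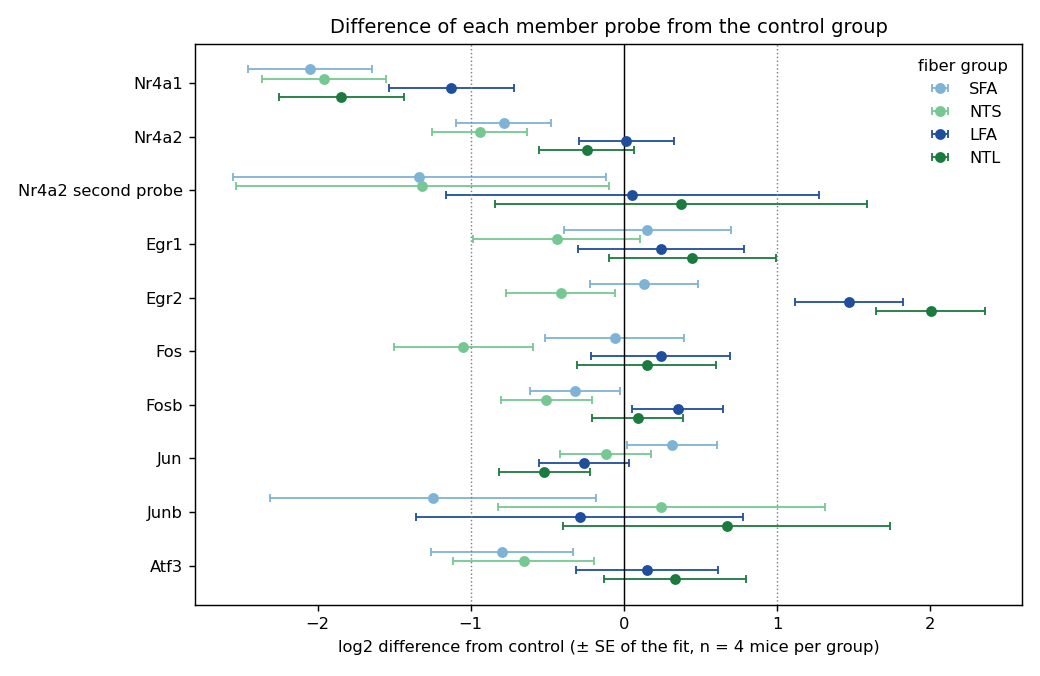
Log2 difference of the 10 tested member probes from the control group (horizontal axis) in SFA, NTS, LFA and NTL, each point with the SE of the fit (n = 4 mice per group). Dotted lines mark a 2-fold difference. Nr4a1 lies beyond −1 in every fiber group, Egr2 beyond 1 in LFA and NTL, and the wide bars belong to Junb and the second Nr4a2 probe.

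The related receptor Nr4a2 had lower means in the short fiber groups than in control, by amounts that differed between slides. Nr4a2 (Nurr1), known for dopaminergic neurons and induced in many cells by cyclic AMP, has a probe at chr2:56960699-56960758 (NCBI37) that was measured on all arrays. Control mice had −1.09, −0.73, 0.16 and 0.44, and NTS mice had −1.12, −1.19, −1.40 and −1.26. All NTS mice lay below all control mice, by −0.94 ± 0.31 in the mean (SE), and the SFA mean differed from control by −0.78 ± 0.31, with 2 of 4 mice below all control mice. LFA (0.02 ± 0.31) and NTL (−0.24 ± 0.31) had 0 mice outside the control range. LFA stood 0.80 ± 0.31 above SFA and NTL 0.70 ± 0.31 above NTS, without overlap in either pair. Within slides the SFA difference was 0.12 on slide 2 and −1.55 on slide 3, and the NTS difference was −1.77 on slide 1 and −0.25 on slide 2. The second Nr4a2 probe, nearer to the 3′ end, was well above background on 16 arrays, with an SD within groups of 1.23 to 2.16 and an SE of 1.22. It gave −1.34 in SFA and −1.32 in NTS, against 0.06 in LFA and 0.37 in NTL, with overlap between long and short fiber groups.

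Nr4a3 (Nor1), the third receptor of the family, was at background. Only 1 array, control replicate 4, had it well above background (−4.32), there on all 10 of its spots. Control replicate 1 had 2 of 10 spots well above background. In all 16 fiber mice it was not well above background, so no fold is given. The measured values of these mice, from −7.71 to −6.64, lay below the lowest control value of −6.63 but carry no order at background. Measured means were −5.84 in control and between −7.44 and −6.99 in the fiber groups.

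Among the EGR genes, Egr1, a zinc finger factor widely used as a marker of recent stimulation, did not separate the groups. Group means were 1.77 ± 0.70 in control, 1.93 ± 0.56 in SFA, 2.01 ± 0.21 in LFA, 1.33 ± 1.30 in NTS and 2.22 ± 0.86 in NTL (SD, n = 4). The NTS mice had 0.82, 0.82, 0.43 and 3.27, so 3 lay below every control mouse and 1 above them all. The differences from control ran from −0.44 to 0.45 with an SE of 0.54, so neighbors in the order of the groups lay within their spread.

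The AP-1 genes showed no difference that stood clear of the spread between mice. Fos values were lower in most NTS mice, with overlap. Fos, which cannot pair with itself and binds DNA as a dimer with Jun proteins, was measured by 10 spots per array whose SD within an array had a median of 0.07, against 0.66 between mice of a group. Control mice had −0.02, −0.06, 0.45 and 1.12. NTS mice had −1.26, −0.61, −1.41 and 0.57, of which 3 lay below every control mouse. The NTS difference was −1.05 ± 0.45 (SE) and was not called, and those of SFA (−0.06), LFA (0.24) and NTL (0.15) were smaller than the same SE. The 3 low NTS mice had a 5′ to 3′ index of 0.20, 0.34 and 0.35, and the NTS mouse at 0.57 had −0.48. The part of the index in the Fos values was not tested. NTL and NTS overlapped.

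Fosb, which like Fos dimerizes with Jun proteins, had group means between −2.20 (NTS) and −1.34 (LFA). Its differences from control were −0.32 in SFA, 0.35 in LFA, −0.51 in NTS and 0.09 in NTL, each ± 0.30, and 3 of 4 LFA mice lay above every control mouse. Jun, the central AP-1 subunit, ran from 3.05 to 5.08 over the 20 mice. Its means stood in the order SFA (4.77), control (4.46), NTS (4.34), LFA (4.20) and NTL (3.94), and neighbors in this order differed by less than the SD within groups of 0.40. The differences from control lay between −0.52 and 0.31, each ± 0.30. Junb, an AP-1 subunit that can oppose Jun, was well above background on 14 arrays and ran from −7.66 to −2.29. Its differences from control, −1.24 to 0.67 (SE 1.07), were smaller than the pooled SD of 1.64 within groups.

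Atf3, a stress-induced bZIP factor that mostly represses transcription, had its highest means in the long fiber groups. Means were 0.61 ± 0.63 in control, −0.19 ± 0.65 in SFA, −0.05 ± 0.52 in NTS, 0.76 ± 0.82 in LFA and 0.94 ± 0.72 in NTL (SD, n = 4). LFA stood 0.95 above SFA and NTL 0.99 above NTS, each ± 0.46 (SE), and both pairs of groups overlapped. Within slides the LFA difference from control ran from −0.91 to 0.73 and the NTS difference was −1.94 on slide 1 and 0.04 on slide 2. Control replicate 4, the only control mouse on slide 1, had the highest control value of Atf3 (1.52), both Nr4a2 probes, Nr4a3, Fos, Fosb, Jun and Junb, and the lowest of Egr1 (1.17) and Egr2 (−1.66).

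Within groups the members fell into sets that rose and fell together from mouse to mouse. With group means removed, over 20 mice, Pearson r was 0.70 between Nr4a1 and Fos, 0.64 between Nr4a1 and Egr1, 0.61 between Egr1 and Egr2, 0.55 between Fos and Egr1, and 0.49 for Egr2 with both Nr4a1 and Fos. These 4 genes gave positive r in all 6 pairs. Junb and the second Nr4a2 probe formed another set, with r = 0.95 (Spearman 0.79), and Junb ran against Egr1 (r = −0.76) and Nr4a1 (r = −0.57). Neither Junb nor the second Nr4a2 probe was well above background on control replicate 2, SFA replicate 1, LFA replicate 3 or NTS replicate 4. Their r includes these arrays, where both had low values at background. Both Nr4a2 probes together gave only r = 0.14, so the probes of this gene did not measure the same variation. Over the 45 pairs of genes by their brightest probe r had a median of 0.08, with 10 pairs over 0.4 and 5 under −0.4.

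The same sets followed the 5′ to 3′ index. Pearson r with the index over the 20 mice was 0.87 for Junb (Spearman 0.80), whose probe starts at base 707 of its transcript, and 0.70 for the second Nr4a2 probe (Spearman 0.57), which starts at base 3112. It was −0.78 for Egr1 (Spearman −0.79), −0.56 for Fos (−0.55) and −0.47 for Egr2 (−0.58). Without SFA replicate 1 and LFA replicate 3, the arrays farthest from the median index, r was 0.82 for Junb, 0.56 for the second Nr4a2 probe, −0.87 for Egr1, −0.55 for Fos and −0.55 for Egr2. With group means removed r was 0.95 for Junb, 0.92 for the second Nr4a2 probe, −0.78 for Egr1, −0.49 for Fos and −0.59 for Egr2. Nr4a1 gave −0.28 over all mice and −0.73 with group means removed. Junb and the second Nr4a2 probe were not well above background on several of these arrays. The points share the array scale, and the part of the index in the correlations between members was not tested. With the index in the fit, the Nr4a1 differences were −2.39 in SFA, −1.49 in LFA, −1.82 in NTS and −2.05 in NTL, and those of Egr2 were 1.22 in LFA and 1.86 in NTL. The Egr1 difference in LFA turned from 0.24 to −0.29. The Junb difference in NTL rose from 0.67 to 1.41, and Junb was called there.

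**Figure D3:**
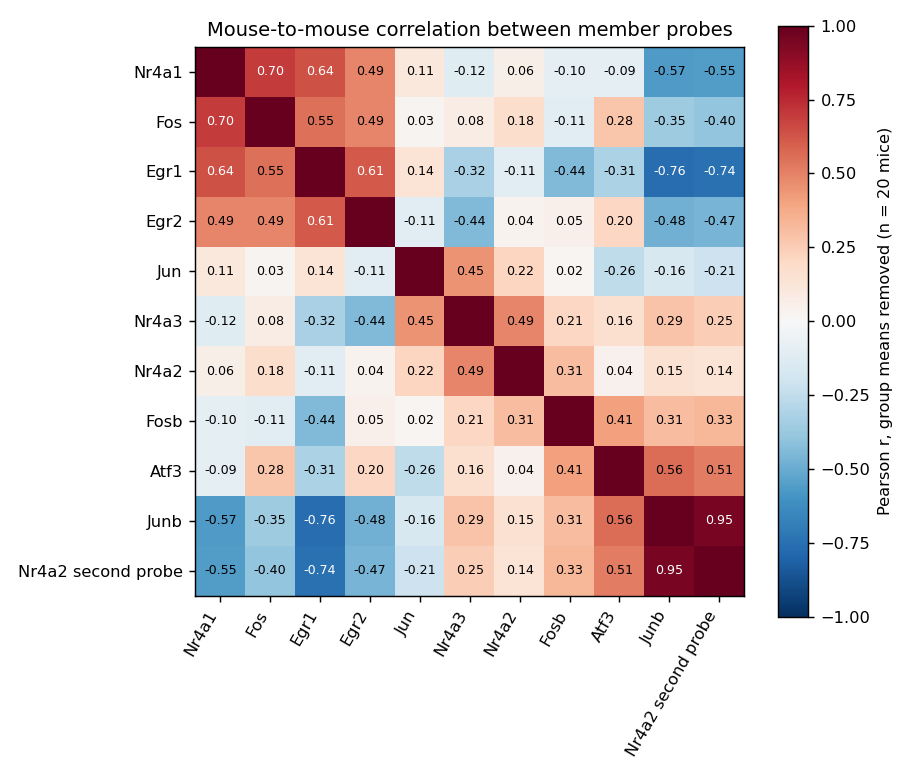
Pearson correlation between the 11 member probes over 20 mice after the mean of each group was removed (color scale from −1 to 1, values printed in the cells). Nr4a1, Fos, Egr1 and Egr2 form a positive block, Junb and the second Nr4a2 probe a pair at 0.95, and Junb runs against Nr4a1, Egr1 and Egr2. Junb and the second Nr4a2 probe were both at background on several of the same arrays.

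**Figure D4:**
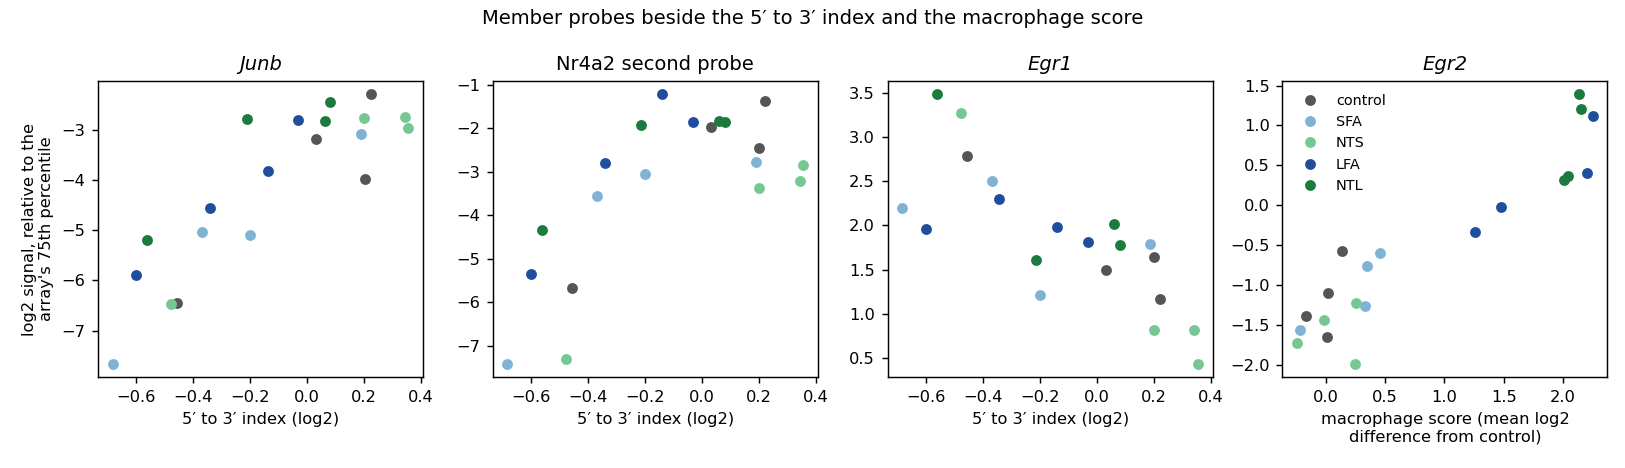
Log2 signal of Junb, the second Nr4a2 probe and Egr1 against the 5′ to 3′ index, and of Egr2 against the macrophage score, with each point a mouse colored by group. Junb rises and Egr1 falls along the index over the 20 mice, and Egr2 rises with the macrophage score from the 12 control, SFA and NTS mice to the 8 LFA and NTL mice.

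Of 14001 other genes measured on all arrays, those most alike to the mean of the 9 measured members, standardized and with group means removed, included Trib1 (r = 0.75), a pseudokinase that marks proteins for degradation, Pappa (0.71), a protease of insulin-like growth factor binding proteins, Tnfaip2 (0.70), Mcl1 (0.69), a survival factor of the BCL2 family, and Plaur (0.68), the urokinase receptor. The other 5 were Fam19a3, Gm5458, 1500032P08Rik, Itfg2 and Ovgp1, with r between 0.67 and 0.71. These are the highest of 14001 values over 20 mice and describe likeness only. The mean also averages members that ran against each other, such as Junb and Egr1 (r = −0.76), so likeness to it is not likeness to each member. With group means kept, Trib1 had r = 0.83 and Mcl1 0.83, while Gm5458 had 0.09 and Itfg2 −0.11. Pearson r of these genes with the 5′ to 3′ index, also with group means kept, ran from −0.56 (Pappa) to 0.04 (Itfg2).

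Genes around the members were described by lists, whose genes were tested over the whole array. Of 17 related family members and partners tested, 1 was called in LFA (higher, 5.88% beside 3.94% of all probes) and 2 in NTL (1 higher and 1 lower, 11.8% beside 6.81%), and the median change was −0.06 in LFA and −0.28 in NTL. Batf, a bZIP factor of lymphocytes and myeloid cells that pairs with JUN proteins, rose in LFA by 1.37 ± 0.34 (SE, adjusted p = 0.0322) and was not called in NTL (adjusted p = 0.0801). Atf7 rose in NTL by 1.75 ± 0.37 (adjusted p = 0.00831), and Rxra, a heterodimer partner of NR4A receptors, fell in NTL by 1.01 ± 0.27 on the log2 scale (adjusted p = 0.0271).

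Of 41 other immediate early response genes, 5 were called in LFA (3 higher and 2 lower) and 4 in NTL (3 higher and 1 lower). These were 12.2% in LFA beside 3.94% of all probes, and 9.76% in NTL beside 6.81%. Rgs1, a regulator of chemokine receptor signaling in leukocytes, rose by 3.39 ± 0.74 in LFA (adjusted p = 0.0171) and 4.08 ± 0.74 in NTL (adjusted p = 0.00262). Ptgs2, the inducible cyclooxygenase, rose by 2.58 ± 0.46 in LFA (adjusted p = 0.00496) and 2.53 ± 0.46 in NTL (adjusted p = 0.00258). Gadd45g, a stress and growth arrest gene, had a log2 change of −1.21 ± 0.27 in LFA (adjusted p = 0.0202) and −1.58 ± 0.27 in NTL (adjusted p = 0.00193). It had −1.01 in SFA and −0.95 in NTS, which were not called (adjusted p = 0.999 in SFA). Named after their values were seen, Socs3 (1.55 in LFA and 1.48 in NTL, called in both) and Sik1 (called lower in LFA) complete the calls. Sik1, a kinase induced by cyclic AMP, had −1.70 ± 0.37 in SFA, −1.44 ± 0.37 in LFA, −1.35 ± 0.37 in NTS and −1.05 ± 0.37 in NTL, and in each of these groups its highest mouse lay below its lowest control mouse. The SFA, NTS and NTL differences of Sik1 were not called (adjusted p = 0.0899 in NTL and 0.999 in SFA). The list's median was 0.21 in LFA and 0.23 in NTL, above the medians of all probes.

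Negative feedback genes of MAP kinase signaling and mRNA decay had 0 of 18 called in each fiber group by limma. The share of all probes called was 3.94% in LFA, 6.81% in NTL and 0% in SFA and NTS. An unadjusted p under 0.05 in that fit was reached by 4 of the 18 in LFA, 2 in NTL, 3 in SFA and 2 in NTS. Of all 36920 tested probes, 8813 had such a p in LFA, 8691 in NTL, 843 in SFA and 1288 in NTS. By the same fit, Dusp8, a phosphatase of stress kinases, had −1.26 ± 0.48 in LFA (adjusted p = 0.127), and Tnfaip3, an inhibitor of NF-κB signaling, had 1.16 ± 0.43 in LFA (adjusted p = 0.119) and 1.19 ± 0.43 in NTL (adjusted p = 0.101). Of 36 upstream kinases and promoter-bound factors, 9 had an unadjusted p under 0.05 by limma in LFA. In LFA 0 of them were called, beside 3.94% of all probes, and in NTL 1 was (2.78% beside 6.81% of all probes). That gene was Camk4, a calcium-dependent kinase that activates CREB, at 1.64 ± 0.38 (adjusted p = 0.0126). Map2k3 had −1.38 in LFA and Rps6ka2 −1.57, and neither was called.

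AP-1-linked inflammatory and matrix genes rose, 10 of 21 in LFA and 11 of 21 in NTL, with 0 lower and list medians of 1.73 and 1.39. These calls were 47.6% in LFA beside 3.94% of all probes, and 52.4% in NTL beside 6.81%. Timp1, an inhibitor of metalloproteinases, rose by 3.74 ± 0.55 in LFA (adjusted p = 0.00114) and 4.60 ± 0.55 in NTL (adjusted p = 0.000103). Il6, an inflammatory cytokine, rose by 3.70 ± 0.50 in LFA (adjusted p = 0.000629) and 4.06 ± 0.50 in NTL (adjusted p = 0.000135). Mmp12, the macrophage elastase, was not well above background in any control mouse (measured mean −6.03) and was at least 16.2-fold higher in NTL (mean −1.01, adjusted p = 0.0145). Without control replicate 1 the LFA count was 6, and in a fit of LFA and control alone 5. Macrophage markers moved in the same groups, 11 of 14 called higher in LFA and 12 in NTL, and their part was not tested.

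NR4A-linked metabolic genes of muscle fell, 5 of 14 in LFA and 8 of 14 in NTL, with 0 higher and a list median of −1.14 in both. These calls were 35.7% in LFA beside 3.94% of all probes, and 57.1% in NTL beside 6.81%. Slc2a4, the insulin-regulated glucose transporter, had −1.32 ± 0.31 in LFA (adjusted p = 0.0228) and −1.34 ± 0.31 in NTL (adjusted p = 0.0122). Fbp2, the muscle fructose bisphosphatase, had −1.45 ± 0.36 in LFA (adjusted p = 0.0322) and −1.41 ± 0.36 in NTL (adjusted p = 0.0224). Pdk4, which restrains glucose oxidation, had −1.80 ± 0.37 in NTL (adjusted p = 0.00644) and −0.76 in LFA, not called. In SFA and NTS 0 of the 14 were called, 0 had an unadjusted p under 0.05 by limma, and the list medians were −0.38 and −0.26. The skeletal muscle markers lay lower in the same groups, with medians of −1.0 in LFA and −0.97 in NTL (−0.27 in SFA and −0.16 in NTS) and 1 called in LFA and 4 in NTL, and their part was not tested. Under quantile normalization 1 of the metabolic genes was called in LFA and 2 in NTL, and with slide as a block 2 and 4. Without control replicate 2 the LFA count was 0, and without NTL replicate 1 the NTL count was 3.

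All calls among heat shock and glucocorticoid-responsive genes were lower. Of 15 heat shock genes (13.3% called in LFA and in NTL, beside 3.94% and 6.81% of all probes), Dnajb4 and Bag3, chaperone partners, were called lower in both LFA (−1.22 ± 0.31 and −1.09 ± 0.29) and NTL (−1.09 ± 0.31 and −1.05 ± 0.29), with adjusted p between 0.0332 and 0.0407. Hspa1a, an inducible chaperone, had −1.17 ± 0.52 and −1.19 ± 0.52 and was not called, and the list medians were −0.65 and −0.78. With a block for the replicate number the count was 0 in LFA and 1 in NTL, and it was 0 in LFA without the arrays high in liver markers. Of 16 glucocorticoid-responsive genes 1 was called in LFA (6.25%) and 4 in NTL (25%). Trim63, a ubiquitin ligase of muscle atrophy, had −1.33 ± 0.35 in LFA (adjusted p = 0.0403) and −1.81 ± 0.35 in NTL (adjusted p = 0.0044), and Zbtb16 had −1.53 ± 0.36 in NTL (adjusted p = 0.0158). Pdk4 belongs to this list too, and Tsc22d3 (−1.11 in NTL), named after its value was seen, was the other call.

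**Figure D5:**
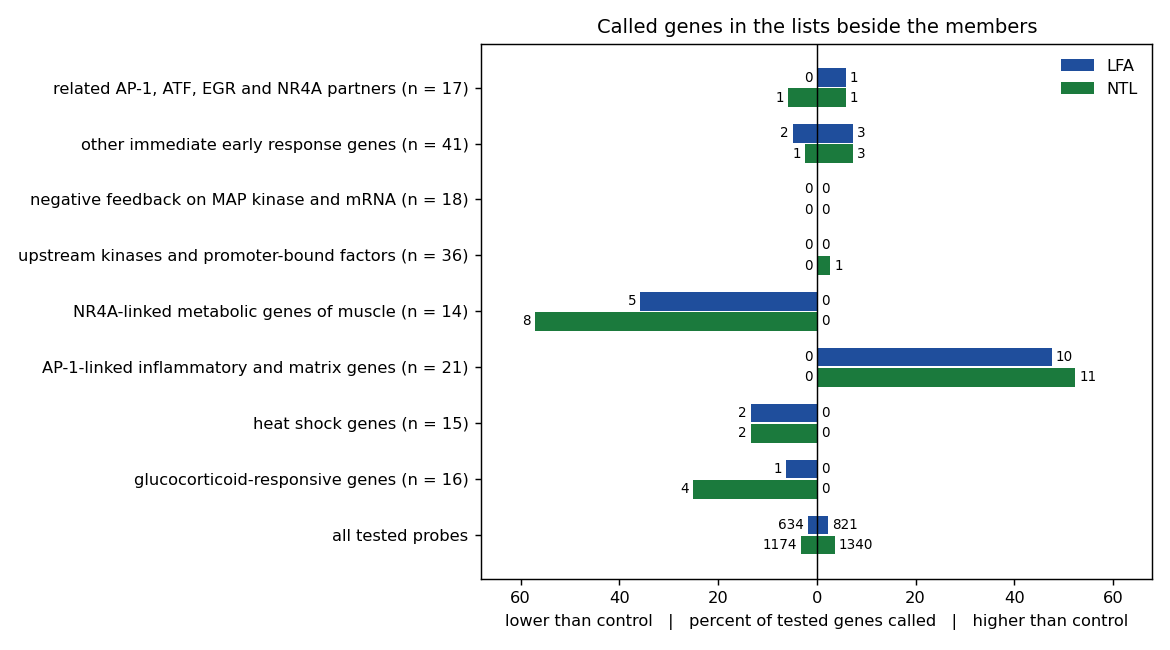
Percent of the tested genes of each list called higher (right) or lower (left) than control in LFA and NTL, with counts beside the bars and all 36920 tested probes at the bottom. The AP-1-linked inflammatory and matrix genes lie to the right (10 and 11 of 21), and the NR4A-linked metabolic genes to the left (5 and 8 of 14).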

How the data were processed

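Total RNA of 20 diaphragms, 4 mice per group, was hybridized to whole mouse genome arrays with a single dye, per the labels. The authors deposited spot intensity values extracted with Agilent Feature Extraction 10.7.3.1 (version per the submitters' processing notes), background-subtracted by that software, and a table of log2 group means that the authors had normalized, which holds no value per mouse. Outlier spots, 92 to 204 on an array, were dropped. Spots of a probe were averaged as log2 intensities after the array's 75th percentile had been subtracted. Any 2 arrays correlated at 0.909 to 0.984. Tested probes (36920 of 55681) were those well above background on 4 or more of the 20 arrays. Group means were estimated over the 20 arrays with limma 3.58.1 in R 4.3.3, and fiber groups were each set against the same control mice. Calls required an absolute log2 change of 1 or more together with an adjusted p (Benjamini-Hochberg) below 0.05. The fit was tested on simulated data. Where several probes measured a gene, the brightest was used. P-values set a difference of group means against the spread between the mice of this experiment. That spread was pooled over the groups in the fit and moderated across probes.

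The members and all lists were chosen with earlier results of these data known. Named are all members, up to 3 genes of each list (called ones first, then by size of change in LFA or NTL) and the 10 genes most like the members. A list score is the mean log2 difference of its genes from the control mean. The 5′ to 3′ index used 1125 transcripts with probes 1000 or more bases apart. Where a group was not well above background, its level was taken as the lowest signal well above background on each array, and the fold is given as at least that value. Probe positions follow NCBI37, from the array files, and promoters RefSeq GRCm38.p6.

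Alternatives were quantile normalization, normexp on raw signals (offset 50), other probe filters, the slide or the replicate number as a block, fits of 2 groups, the authors' table, and each array left out in turn. Added after seeing the data were the index as a covariate and the removal of 5 arrays high in liver markers. Replicate numbers were not treated as pairs: of 40 same-numbered pairs, 14 had a correlation of deviations over 0.1 (range −0.68 to 0.69), and all 4 pairs did so in 1 of the 10 pairs of groups, control and NTL. The number of arrays limits the precision. Values were handled in Python 3.11.15 (pandas 2.3.3, scipy 1.17.1).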

Additional observations from a re-analysis of the deposited data

Results flagged for a closer look

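In sets of 4 mice, 20 of 220 values of members and named genes (9.09%) stood apart from the other 3 of their group by Dixon's criterion, which chance reaches in about 1 of 20 sets. Values are log2 signals relative to the 75th percentile.

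NTS replicate 4 and NTL replicate 2 account for most of the members' values. In NTS replicate 4 Egr1 was 3.27, against 0.43 to 0.82 in the other NTS mice. Junb was −6.47 there, against −2.95 to −2.73, and the second Nr4a2 probe was −7.30, against −3.38 to −2.84. In NTL replicate 2 Junb was −5.19 (others −2.81 to −2.43), the second Nr4a2 probe −4.34 (others −1.93 to −1.83) and the brighter Nr4a2 probe −0.15 (others −0.72 to −0.64). SFA replicate 1 had the second Nr4a2 probe at −7.41 (others −3.56 to −2.78). These 3 arrays had a 5′ to 3′ index of −0.48, −0.56 and −0.68, the lowest of their groups. The part of the index in these values was not tested. Nr4a3 in SFA replicate 2 was −6.64 (others −7.40 to −7.34), with 0 of the 4 mice well above background.

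Among named genes outside the members, Atf7 stood apart in control replicate 4 (−0.52) and LFA replicate 3 (−0.030), and Gadd45g in NTS replicate 2 (4.37). Spry2 stood apart in NTS replicate 4 (−7.28), Rps6ka2 in LFA replicate 3 (−2.76) and Map2k3 in SFA replicate 4 (1.74). Pappa did so in NTL replicate 2 (0.095), Tnfaip2 in SFA replicate 2 (2.04) and Itfg2 in SFA replicate 3 (−0.36). Mcl1 did so in control replicate 2 (5.88), LFA replicate 4 (5.79) and NTS replicate 3 (4.49).

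Each NTS mouse lay below the control mean of Egr2, and each LFA and NTL mouse lay above it. In NTS the difference from control was only −0.41 ± 0.35 (SE), with 2 of 4 mice below every control mouse. Within slides it was 0.05 on slide 1 and −0.60 on slide 2. The difference between the LFA and NTS changes of Egr2 was 1.88, and that between its NTS and NTL changes was −2.41. These differences between groups were not tested.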

How the results depend on the processing

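Under every alternative run, Nr4a1 stayed lower in all 4 fiber groups and Egr2 higher in LFA and NTL, and 0 results changed sign with a call. Over all alternatives 357 differences of members moved by less than the SD within the 2 groups compared and 7 by more, namely Nr4a3 under normexp in the 4 fiber groups, Egr1 in LFA with the index, Fosb in NTS without the arrays high in liver markers (−0.18) and the other Nr4a2 probe in NTL (0.37). The number of probes called moved more. In LFA, 1455 became 915 with no filter, 899 with slide as a block, 588 with only the groups compared and 2641 with the index as a covariate, and it ran from 466 (without LFA replicate 2) to 2639 (without NTS replicate 4) with single arrays left out. In NTL, 2514 became 1328 with slide as a block and 4128 with the index, and ran from 1394 (without NTL replicate 4) to 3102 (without NTS replicate 4). In SFA, 0 became 1 under normexp or a filter on all 20 arrays and 4 with the index, with 0 to 1 when single arrays were left out. Members called in SFA became 1 with the index (Nr4a1). In LFA they became 2 with no filter (Egr2 and Nr4a3) or the index (Egr2 and Nr4a1), 0 with only the groups compared, and 0 to 1 with single arrays left out. In NTL, Nr4a3 joined Egr2 and Nr4a1 with no filter, and Junb joined them with the index (1.41). Same-numbered mice were not treated as pairs, although all 4 pairs of control and NTL arrays deviated together (r from 0.11 to 0.69). With the replicate number as a block 1219 probes were called in LFA and 2230 in NTL, with 1 and 2 members, in place of 1455 and 2514. Counts from the authors' table were not run, since it holds group means. Without the arrays high in liver markers, 1093 probes were called higher and 610 lower in LFA, and 1638 higher and 1916 lower in NTL. Fits with fewer groups or arrays leave fewer degrees of freedom, and the counts moved both up and down among them. The cause of these shifts was not tested.

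Junb, Nr4a3 and the second Nr4a2 probe lay near background on several arrays, which limits their values. With 4 mice per group the SE of the other members' log2 differences was 0.30 to 0.54, and differences of that size cannot be told from the spread between mice.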
